A study of Mus musculus with 6 samples.

Results

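The genes described here are 7 transcripts of hemoglobin and red blood cell function, taken as a measure of blood in a whole tissue: the alpha globins Hba-a1 and Hba-a2, the beta globins Hbb-bs and Hbb-bt, the heme synthesis enzyme Alas2, the membrane transporter Slc4a1 and the enzyme Bpgm. They were chosen by gene symbol, and all 7 were found among the 18058 genes of the deposited table. RNA sequencing was performed on 6 brainstems of naive mice at 1 month of age, 3 from wild type (WT) C57BL/6J mice and 3 from Rag1-/- mice, whose loss of a recombinase needed for antigen receptor assembly leaves them without mature T or B cells. Each library was made from the total RNA of the snap-frozen whole brainstem of a different mouse, and whether these mice were perfused to clear the vessels of blood is not given in the sources used here. Values are CPM, the reads of a gene scaled to a fixed library size.

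Hemoglobin is a tetramer of alpha and beta chains, each of which binds a heme group that carries oxygen. Its mRNA is made in red cell precursors in the marrow and is carried into the circulation by reticulocytes, the youngest red cells, so globin transcripts in a tissue such as the brainstem are read mainly as blood. Alas2 catalyses the first and rate-limiting step of heme synthesis in red cell precursors, Slc4a1 encodes band 3, the anion exchanger of the red cell membrane, and Bpgm makes 2,3-bisphosphoglycerate, which lowers the oxygen affinity of hemoglobin.

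Globin transcripts were found in every brainstem, and their level differed more between mice of the same genotype than between the genotypes. The 4 globin genes summed to 639, 986 and 1859 CPM in the WT libraries and to 1254, 882 and 1418 CPM in the Rag1-/- libraries. The lowest and the highest sums were both WT, 2.91-fold apart, and the Rag1-/- libraries lay between them. The group means were 1162 ± 628 CPM (SD, n = 3) in WT and 1185 ± 275 CPM (SD, n = 3) in Rag1-/-, a ratio of 1.02. Alas2 and Slc4a1 varied over the libraries by a similar factor, while Bpgm stayed within 1.17-fold over all 6 and did not follow the globin genes. The balance of alpha to beta globin, in contrast, was higher in each WT library than in any Rag1-/- library. In bulk tissue, fewer red cells and less RNA per red cell cannot be told apart.

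The depth of the libraries, estimated from the steps among their low values, was 31600000 to 46400000 reads, at which 3 reads equal 0.0646 to 0.0951 CPM. The lowest value of any of the 7 genes was 0.920 CPM, so all of them lay above this level in every library and all 7 passed the filter of a mean of at least 0.1 CPM. Transcripts of Rag1, the targeted gene, stood at 0.236, 0.388 and 0.115 CPM in WT but at 2.60, 4.02 and 2.90 CPM where the label reads Rag1-/-, so they were higher under that label. The level of reads does not show whether the protein is made, and each direction given here rests on the labels. WT replicates 1 and 2 had 172 and 177 CPM of Xist, the non-coding RNA of the inactive X chromosome, and the other 4 libraries had 2.93 CPM or less, so WT replicate 3 is the only WT library comparable in Xist to the Rag1-/- libraries. The 9 marker genes of brainstem position, such as Hox genes, were above the level of 3 reads in every library, but their sum differed widely, at 68.9, 75.4 and 27.2 CPM in WT and at 127, 42.8 and 42.6 CPM in Rag1-/-. Hoxb3, named after its values were seen, was at 7.86 CPM in Rag1-/- replicate 1 and at 0.412 CPM in Rag1-/- replicate 2. Without Rag1-/- replicate 2 the ratio of mean globin sums was 1.15 and that of the alpha to beta ratios described later 0.803, and the part of such differences between the samples in the values given here was not tested.

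The alpha globin genes lie side by side on chromosome 11 and are near copies. Hba-a1 (ENSMUSG00000069919.7, plus strand, 3 exons) is listed at chr11:32283672-32297303 on mm10 and Hba-a2 (ENSMUSG00000069917.7, plus strand, 3 exons) at chr11:32283675-32297310, so the deposited row of each spans both copies. RefSeq places Hba-a1 at chr11:32283672-32284486 and Hba-a2 at chr11:32296492-32297310. Their coding sequences of 429 bases differ at 1 base and are 99.8% identical, with 380 identical bases in a row. The window of 60 bases around that difference, bases 346 to 405 of the coding sequence in GENCODE transcripts, is shown because a read that does not cross the capital letter cannot be assigned to either gene by its coding sequence.
Hba-a1: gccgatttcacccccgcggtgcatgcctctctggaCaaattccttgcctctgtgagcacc
Hba-a2: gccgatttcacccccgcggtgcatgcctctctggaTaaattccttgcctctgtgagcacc
Hba-a1 was at 292, 447 and 832 CPM in WT and at 538, 381 and 623 CPM in Rag1-/-. Hba-a2 was at 229, 362 and 703 CPM in WT and at 443, 307 and 497 CPM in Rag1-/-. For both genes WT replicate 1 was the lowest and WT replicate 3 the highest of the 6 libraries, and the groups overlapped. The means of Hba-a1 were 524 ± 278 CPM in WT and 514 ± 123 CPM in Rag1-/- (SD, n = 3 each), and its log2 fold change, Rag1-/- minus WT on the log2(CPM + 0.1) scale, was 0.08 with a 95% interval of -0.68 to 0.84 (adjusted p = 0.946, limma-trend with Benjamini-Hochberg adjustment). The means of Hba-a2 were 431 ± 244 CPM in WT and 416 ± 98.1 CPM in Rag1-/- (SD, n = 3 each), with a log2 fold change of 0.07 and an interval of -0.73 to 0.88 (adjusted p = 0.953, limma-trend). For both genes the mean CPM was slightly lower and the mean log2 value slightly higher in Rag1-/-, so the sign depends on the scale of the average. The ratio of Hba-a2 to Hba-a1 ran from 0.784 to 0.845 in WT and from 0.799 to 0.824 in Rag1-/-, and the groups overlapped. Since the rows can share reads, this ratio does not measure the output of the separate copies.

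The beta globin genes on chromosome 7 form a similar pair. Hbb-bs (minus strand) is listed at chr7:103826523-103827928 and Hbb-bt (minus strand) at chr7:103812524-103813923 on mm10, the adult beta genes of the haplotype that C57BL/6 mice carry. Their coding sequences of 444 bases also differ at 1 base and are 99.8% identical, with 416 identical bases in a row. Bases 372 to 431 are shown for the same reason as for the alpha genes, with the differing base in capitals.
Hbb-bs: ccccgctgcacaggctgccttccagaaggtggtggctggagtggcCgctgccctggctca
Hbb-bt: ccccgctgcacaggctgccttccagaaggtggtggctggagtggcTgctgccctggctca
Hbb-bs was at 95, 143 and 258 CPM in WT and at 223, 159 and 239 CPM in Rag1-/-. Hbb-bt was at 23.0, 34.7 and 66.9 CPM in WT and at 51.0, 35.3 and 59.1 CPM in Rag1-/-. As for alpha globin, WT replicate 1 was the lowest and WT replicate 3 the highest library for both, with all 3 Rag1-/- libraries above WT replicate 2. The means of Hbb-bs were 165 ± 83.5 CPM in WT and 207 ± 42.5 CPM in Rag1-/- (SD, n = 3 each), with a log2 fold change of 0.42 and an interval of -0.29 to 1.14 (adjusted p = 0.609, limma-trend). The means of Hbb-bt were 41.5 ± 22.7 CPM in WT and 48.5 ± 12.1 CPM in Rag1-/- (SD, n = 3 each), with a log2 fold change of 0.33 and an interval of -0.45 to 1.11 (adjusted p = 0.728, limma-trend). Neither difference exceeded the spread between the mice. The ratio of Hbb-bt to Hbb-bs was 0.242, 0.243 and 0.260 in WT and 0.229, 0.222 and 0.247 in Rag1-/-, and the groups overlapped.

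The table also lists Hbb-b1 and Hbb-b2, symbols of the adult beta genes of another haplotype, at the loci of Hbb-bs and Hbb-bt. Hbb-b2 had the same value as Hbb-bt in every library, with a largest difference of 0 CPM. Hbb-b1 was at 176, 265 and 474 CPM in WT and at 412, 294 and 442 CPM in Rag1-/-, between 1.84 and 1.86 times Hbb-bs in every library. These rows therefore followed Hbb-bs and Hbb-bt and give no separate measurement. With Hbb-b1 and Hbb-b2 added, the ratio of the mean globin sum in Rag1-/- to that in WT was 1.07.

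**Figure D1:**
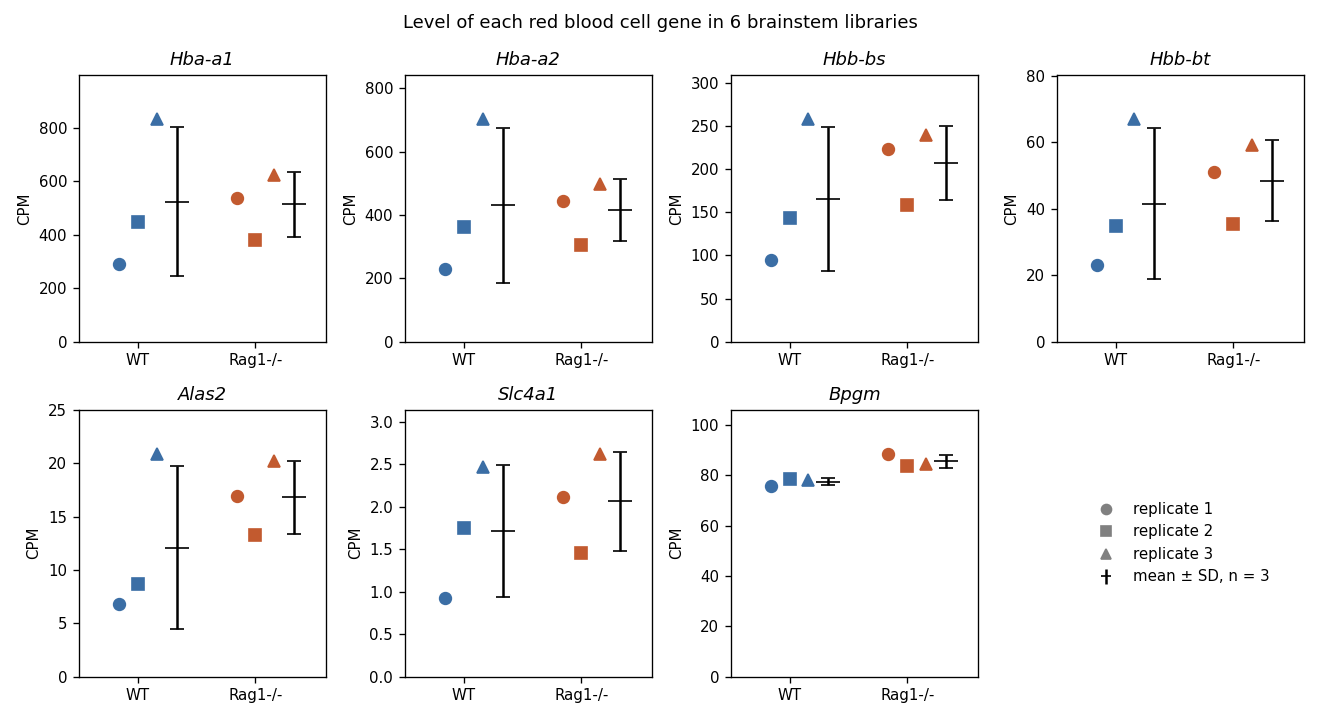
Level of each gene in CPM (vertical axes, each from 0) in the 3 WT and 3 Rag1-/- libraries, with a symbol for each replicate and the mean ± SD (n = 3) beside the points. WT replicate 1 was the lowest library for each gene, and the points of Bpgm, unlike those of the other 6 genes, lay close together, between 75.8 and 88.4 CPM, with no overlap between the groups.

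The promoters of 6 of the 7 genes were matched in RefSeq (GRCm38.p6), all except that of Slc4a1. The 100 bases before each transcription start are shown because the 4 globin genes moved together over the libraries. Capitals mark matches, on either strand, to the letters of 4 motifs. The TATA box was searched as TATAA and is held by 10.2% of the 32851 promoters of the table in this window. The CCAAT box is held by 18.9%. The CACCC box, which the erythroid factor Klf1 can bind, is held by 27.2%. The GATA motif, which Gata1 can bind, was searched as GATAA and is held by 8.55%. No match to one motif overlaps a match to another in these windows.
Hba-a1, chr11:32283572-32283671, plus strand: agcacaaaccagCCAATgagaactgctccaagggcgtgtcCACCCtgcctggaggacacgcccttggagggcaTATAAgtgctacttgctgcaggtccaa
Hba-a2, chr11:32296392-32296491, plus strand: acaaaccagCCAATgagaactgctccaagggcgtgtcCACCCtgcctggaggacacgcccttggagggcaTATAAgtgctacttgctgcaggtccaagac
Hbb-bs, chr7:103827929-103828028, minus strand: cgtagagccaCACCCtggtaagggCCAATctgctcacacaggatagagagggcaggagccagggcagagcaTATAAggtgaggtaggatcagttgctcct
Hbb-bt, chr7:103813924-103814023, minus strand: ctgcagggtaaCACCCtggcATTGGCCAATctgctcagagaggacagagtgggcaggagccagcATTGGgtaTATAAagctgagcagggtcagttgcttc
Alas2, chrX:150547317-150547416, plus strand: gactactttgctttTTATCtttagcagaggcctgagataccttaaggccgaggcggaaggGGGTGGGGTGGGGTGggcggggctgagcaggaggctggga
Bpgm, chr6:34476256-34476355, plus strand: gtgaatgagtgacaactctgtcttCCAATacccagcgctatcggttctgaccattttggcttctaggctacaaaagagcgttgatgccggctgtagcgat
Each of the 4 globin promoters holds a TATA box, a CCAAT box and a CACCC box, a combination found in 155 promoters of the table (0.472%). The TATA box begins 27 bases before the start in Hba-a1, 30 in Hba-a2, 29 in Hbb-bs and 28 in Hbb-bt. In the alpha genes the CCAAT box lies further from the start than the CACCC box, and in the beta genes the order is the opposite. Aligned with a shift of 3 bases, the alpha promoters are identical over all 97 shared bases, whereas 73 of 99 shared bases (73.7%) are identical between Hbb-bs and Hbb-bt. Hbb-bt has 3 CCAAT matches, of which 2 adjoin each other on opposite strands. The Alas2 window has 3 adjoining CACCC matches and 1 GATA match, all on the minus strand, with neither a TATA box nor a CCAAT box, and that of Bpgm has 1 CCAAT match and none of the other motifs. These matches describe the letters of the windows and do not show that a factor binds there.

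The alpha and beta chains were then compared within each library, which takes the ratio of genes measured in the same sample. Hba-a1 and Hba-a2 together were at 521, 809 and 1535 CPM in WT and at 981, 688 and 1120 CPM in Rag1-/-. Hbb-bs and Hbb-bt together were at 118, 177 and 324 CPM in WT and at 274, 194 and 298 CPM in Rag1-/-. Both sums overlapped between the groups, with a ratio of Rag1-/- to WT means of 0.973 for alpha and 1.24 for beta. The ratio of alpha to beta CPM was 4.42, 4.56 and 4.73 in WT and 3.59, 3.55 and 3.76 in Rag1-/-. The groups did not overlap, and the gap between the lowest WT and the highest Rag1-/- value was larger than the range of either group. The means were 4.57 ± 0.156 in WT and 3.63 ± 0.111 in Rag1-/- (SD, n = 3 each), a ratio of 0.794, given as a description with no test because it is a score over chosen genes. With Hbb-b1 and Hbb-b2 counted as beta, the ratio of alpha to beta was 1.65, 1.70 and 1.77 in WT and 1.33, 1.31 and 1.40 in Rag1-/-, and the ratio of the means was 0.791. For the ratio with Hbb-bs and Hbb-bt as beta, leaving out each library in turn gave a ratio of means of 0.780 to 0.809. Within each genotype the library with the highest globin sum also had the highest ratio, but the WT libraries with 639 and 986 CPM of globin had higher ratios than the Rag1-/- libraries with 882 to 1418 CPM. WT replicate 3, the only WT library with low Xist, had the highest ratio of the 6. The part of the Xist difference in this separation was not tested.

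**Figure D2:**
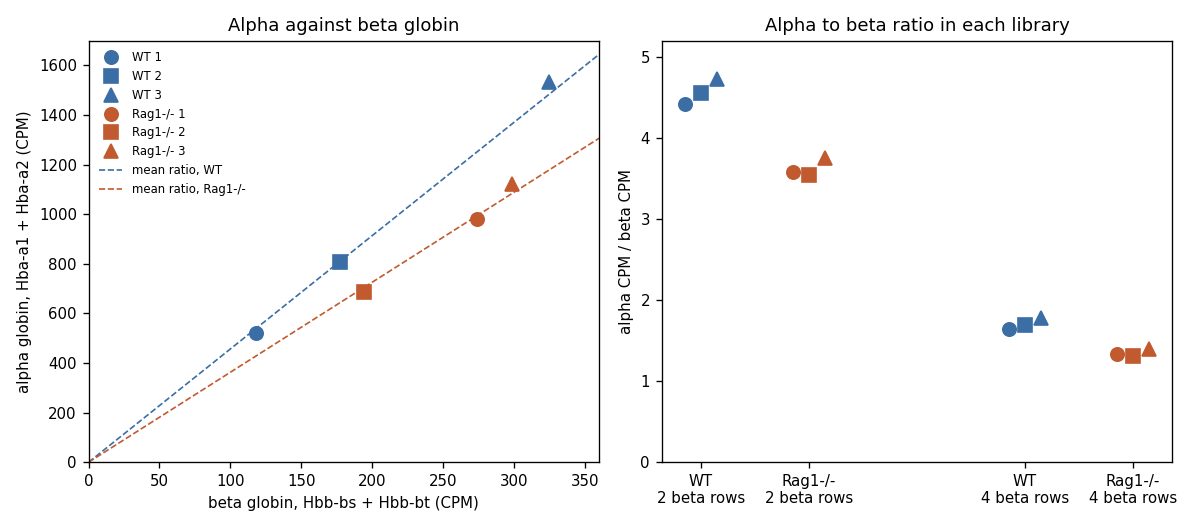
The first panel plots alpha globin CPM (Hba-a1 + Hba-a2) against beta globin CPM (Hbb-bs + Hbb-bt) for each library, with dashed lines at the mean ratio of each genotype, and the second the ratio in each library with 2 or 4 beta rows. The WT libraries lay along a steeper line than the Rag1-/- libraries, with ratios of 4.42 to 4.73 against 3.55 to 3.76.

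The makeup of the globin sum gives the same values in another form. Hba-a1 made up 44.7% to 45.7% of the sum of the 4 globin genes in WT and 42.9% to 43.9% in Rag1-/-, and Hba-a2 made up 35.8% to 37.8% and 34.8% to 35.3%. Hbb-bs made up 13.9% to 14.9% in WT and 16.9% to 18% in Rag1-/-, and Hbb-bt 3.52% to 3.60% and 4.0% to 4.17%. None of the 4 shares overlapped between the groups, but the shares of a sum are not independent of each other. They largely restate the alpha to beta ratio and are not a further result.

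Alas2 (chrX:150547417-150570622, plus strand, 11 exons), which encodes the heme synthesis enzyme of red cell precursors, was at 6.77, 8.66 and 20.9 CPM in WT and at 17.0, 13.3 and 20.2 CPM in Rag1-/-. All 3 Rag1-/- libraries were above WT replicates 1 and 2, and WT replicate 3 was above all of them. The means were 12.1 ± 7.65 CPM in WT and 16.8 ± 3.44 CPM in Rag1-/- (SD, n = 3 each). Its log2 fold change of 0.63 was the largest of the 7 genes, with an interval of -0.19 to 1.44 (adjusted p = 0.523, limma-trend). Without WT replicate 3 the log2 fold change was 1.10, and it still missed the threshold (adjusted p = 0.0857, limma-trend). Relative to alpha globin, Alas2 was at 13, 10.7 and 13.6 per 1000 CPM of alpha in WT and at 17.3, 19.3 and 18 in Rag1-/-, with no overlap. Relative to beta globin it was at 57.4, 48.8 and 64.3 per 1000 CPM of beta in WT and at 62.0, 68.6 and 67.7 in Rag1-/-, and the groups overlapped. The separation of Alas2 from alpha globin thus did not extend to beta globin.

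Slc4a1 (chr11:102348820-102365281, minus strand, 20 exons), which encodes the band 3 anion exchanger, was at 0.920, 1.74 and 2.47 CPM in WT and at 2.11, 1.46 and 2.62 CPM in Rag1-/-. Here Rag1-/- replicate 3 was the highest library and WT replicate 1 again the lowest. The means were 1.71 ± 0.776 CPM in WT and 2.06 ± 0.582 CPM in Rag1-/- (SD, n = 3 each), with a log2 fold change of 0.32 and an interval of -0.45 to 1.08 (adjusted p = 0.733, limma-trend). Per 1000 CPM of alpha globin, Slc4a1 was at 1.77, 2.16 and 1.61 in WT and at 2.15, 2.12 and 2.34 in Rag1-/-, and the groups overlapped, as they did per 1000 CPM of beta globin.

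Bpgm (chr6:34476356-34505610, plus strand, 3 exons), which makes 2,3-bisphosphoglycerate, differed from the other 6 genes in its small spread. It was at 75.8, 78.7 and 77.9 CPM in WT and at 88.4, 83.6 and 84.4 CPM in Rag1-/-. Every Rag1-/- library was above every WT library. The means were 77.5 ± 1.49 CPM in WT and 85.5 ± 2.56 CPM in Rag1-/- (SD, n = 3 each), a ratio of 1.10. The log2 fold change was 0.14 with an interval of 0.05 to 0.24, and it did not pass adjustment (adjusted p = 0.340, limma-trend). In an exact permutation test (two-sided) its p was 0.1, which is the lowest that 3 libraries against 3 allow, and for the other 6 genes the same exact test gave 0.4 to 1. Over leaving out each library in turn the log2 fold change stayed between 0.12 and 0.16. The globin sum of WT replicate 3 was 2.91 times that of WT replicate 1, while the level of Bpgm in WT varied 1.04-fold over its 3 libraries.

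Of the 7 genes, 0 had an adjusted p under 0.05 by limma-trend, where 0.0477% of the 16762 tested genes did (8 genes, 2 higher and 6 lower in Rag1-/-). At an unadjusted p under 0.05, 1 of 7 was called, Bpgm, where 11.6% of all tested genes were. Likewise 1 of 7, again Bpgm, was higher in Rag1-/- with no overlap between the groups, where 3.98% of all tested genes were. The fitted log2 fold change was above 0 for all 7 genes, with a median of 0.32, while 5422 of the 16762 tested genes were above 0 and the median of all was -0.05. These 7 values are not independent, since 6 of the genes were high and low in much the same libraries. For 4 of the 7 genes the direction rested on single libraries. Without WT replicate 1 the log2 fold change was -0.28 for Hba-a1, -0.31 for Hba-a2, -0.02 for Hbb-bt and -0.05 for Slc4a1, while it stayed above 0 for Hbb-bs (0.09), Alas2 (0.30) and Bpgm (0.13), which reversed with no library left out. Without WT replicate 3 it was 0.48, 0.50, 0.74 and 0.62 for the same genes and 0.81 for Hbb-bs. With a term for the libraries with high Xist, which leaves WT replicate 3 as the WT library compared, the log2 fold change was below 0 for 6 of the 7 genes, from -0.79 for Hba-a2 to -0.29 for Slc4a1, and 0.13 for Bpgm.

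**Figure D3:**
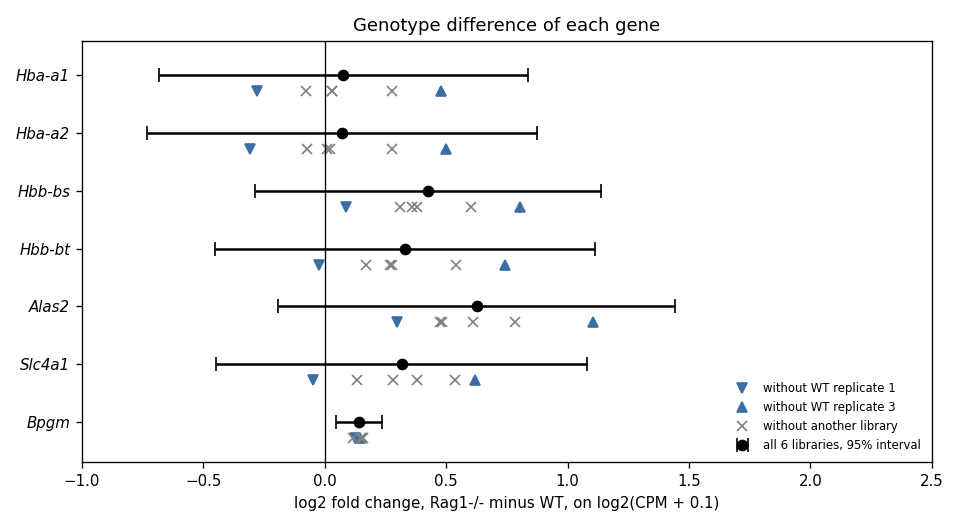
Log2 fold change of each gene, Rag1-/- minus WT on log2(CPM + 0.1), as a black point with its 95% interval from limma-trend, and with smaller symbols the value after leaving out each library. The intervals of 6 genes spanned 0 and their values moved with WT replicates 1 and 3, whereas that of Bpgm ran from 0.05 to 0.24.

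The spread between mice of a genotype was large for the 6 genes other than Bpgm. Their SD of log2 values within a genotype was between 0.56 for Hbb-bs and Slc4a1 and 0.63 for Hba-a2 and Alas2, compared with a median of 0.10 over all tested genes. Only 2.04% of the tested genes had a larger SD than Alas2 and 3.16% a larger SD than Slc4a1, the extremes of the 6. For Bpgm the SD was 0.04, and 93.7% of the tested genes had a larger SD. Within WT the highest library was 2.69-fold to 3.08-fold above the lowest for the 6 genes, and within Rag1-/- 1.51-fold to 1.80-fold.

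Levels were compared between genes per kilobase of transcript. Hba-a2 was at 778 CPM per kilobase in WT and 750 in Rag1-/-, and Hba-a1 at 749 and 735, so the alpha genes did not differ beyond their spread, which ran from 414 to 1268 CPM per kilobase for Hba-a2. Hbb-bs followed at 263 and 329 CPM per kilobase, with its highest library, at 410, just under the lowest of the alpha genes, and Hbb-bt at 59.1 and 68.9. Bpgm was at 34.9 and 38.5 CPM per kilobase, and its highest library, at 39.8, was above the lowest library of Hbb-bt, at 32.7, so these neighbours overlapped. Alas2 was at 5.94 and 8.25 CPM per kilobase and Slc4a1 at 0.377 and 0.454, and neither reached the range of its neighbours. This order of the rows held in the mean of both genotypes. Hbb-b1, at the locus of Hbb-bs, had means of 305 CPM in WT and 383 CPM in Rag1-/-, beside 165 and 207 CPM for Hbb-bs. Neither Hbb-b1 nor Hbb-b2 was counted in these levels. The places of Hbb-bs and Hbb-bt under the alpha genes thus hold for their rows alone and do not rank the genes. Reads shared between the globin copies could also shift the globin levels against each other.

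The profile over the 6 libraries was described by centring the log2 values of each gene on their mean. The root mean square difference from the mean profile of the 4 globin genes was between 0.0558 for Hbb-bt and 0.106 for Hbb-bs among the globins themselves, 0.139 for Slc4a1 and 0.231 for Alas2. For Bpgm it was 0.477, close to the median of all tested genes (0.518) and to the size of the globin profile itself (0.501). Among genes other than the 7, and apart from Hbb-b1 and Hbb-b2, the smallest difference was that of Tgfbr3l (0.140), Ptgdr2 (0.156), Dpep1 (0.161), Guca1b (0.199) and Fam46c (0.206). Fam46c, which is known to be active late in red cell development, was at 1.32, 1.87 and 2.67 CPM in WT and at 2.51, 2.06 and 2.59 CPM in Rag1-/-. Tgfbr3l was at 0.472, 0.797 and 1.41 CPM in WT and at 0.866, 0.602 and 0.968 CPM in Rag1-/-, whereas Ptgdr2, Dpep1 and Guca1b reached at most 0.402 CPM, a level of few reads. The likeness is over 6 libraries among 16762 genes and says nothing of shared control.

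**Figure D4:**
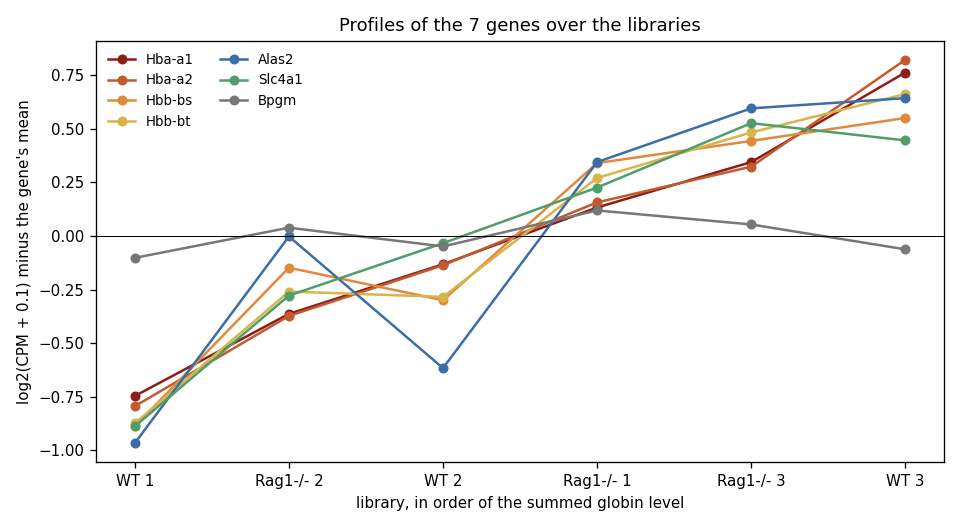
Log2(CPM + 0.1) of each gene minus its mean (vertical axis) in the 6 libraries, ordered by their summed globin level (horizontal axis). The lines of the 4 globin genes, Alas2 and Slc4a1 were lowest in WT replicate 1 and above 0 in Rag1-/- replicates 1 and 3 and WT replicate 3, and that of Bpgm stayed near 0.

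Other genes of red cell biology were taken from lists by role. Of 76 listed genes 67 were in the table and 61 were tested, and 0 of the 61 had an adjusted p under 0.05 by limma-trend. At an unadjusted p under 0.05, 5 were higher and 3 lower in Rag1-/-, 13.1% of those tested beside 11.6% of all genes, and their median log2 fold change was 0.0045. All 11 other enzymes and carriers of heme synthesis were tested, and the largest differences among them were 0.13 for Cpox and -0.06 for Ppox on the log2 scale, with overlapping groups for both. Of the 13 genes of the red cell membrane and its skeleton tested, 4 had a log2 fold change above 0, and the median of the list was -0.12. The WT mean was 233 CPM for Sptb, 224 CPM for Ank1 and 219 CPM for Add2, beside 1.71 CPM for Slc4a1. The cells these transcripts came from were not tested, so the median is not read as a change of red cells.

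Among the 7 tested transcription factors and receptors of red cell precursors, 6 had a log2 fold change above 0. Tfrc, the transferrin receptor that takes up iron and is also made by many other cells, was at 86.5, 96.1 and 75.7 CPM in WT and at 131, 123 and 135 CPM in Rag1-/-. The groups did not overlap, and the log2 fold change of 0.59 missed the threshold (adjusted p = 0.0735, limma-trend), as it did in most alternatives. With a library left out, the adjusted p by limma-trend ran from 0.022 without WT replicate 2 and 0.0281 without WT replicate 3 to 0.479 without Rag1-/- replicate 3, and it was 0.376 without the trend, 0.382 with ordinary variance and 0.334 with a replicate block. Its order over the libraries was not that of the globin genes, as WT replicate 3, the highest in globin, was the lowest in Tfrc. Klf1, a transcription factor of red cell precursors that activates beta globin, was near the level of 3 reads in every library, with a log2 fold change of 0.08, and Epor, the erythropoietin receptor, had a log2 fold change of -0.31, both with overlapping groups. Gata1 and Ahsp are not analysed here. Of the 10 late red cell genes tested, 9 had a log2 fold change above 0, with the largest being 0.57 for Isg20 and 0.53 for Trim10, and none passed adjustment. Among the 7 tested other globins, which include the Hbb-b1 and Hbb-b2 rows, the largest differences were -0.49 for Hbq1a and 0.43 for Hbb-b1. Cd163, the macrophage receptor for hemoglobin bound to haptoglobin, had a log2 fold change of -0.39 and Hp, which encodes haptoglobin, of -0.36, and the genes of glycolysis around 2,3-bisphosphoglycerate differed by no more than -0.09 (Minpp1) and -0.07 (Pgam2). None of these passed adjustment.

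**Figure D5:**
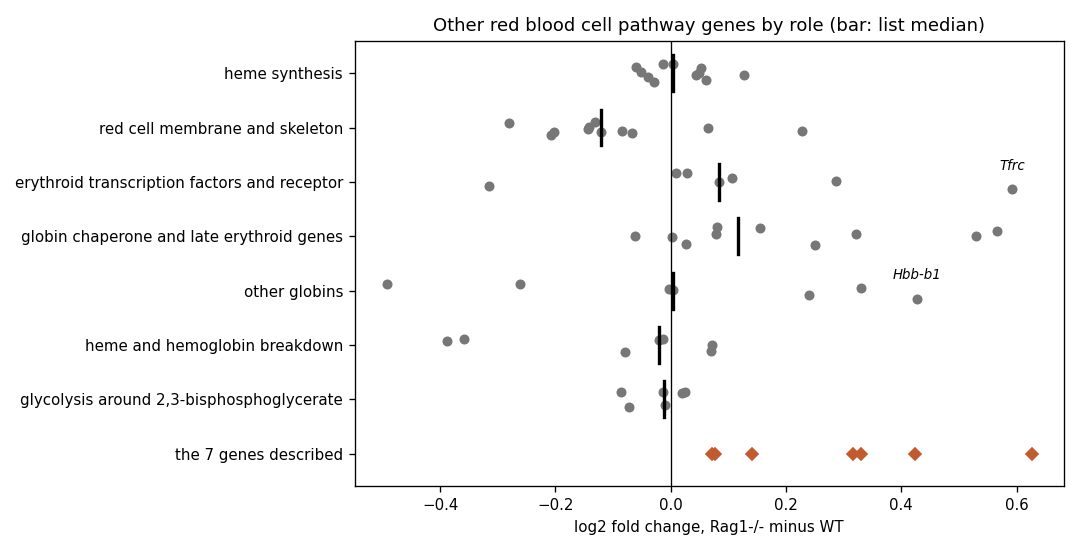
Log2 fold change, Rag1-/- minus WT (horizontal axis), of the tested genes of the red cell lists that are reported here, by role, with a bar at the median of all tested genes of each list, and of the 7 genes described (diamonds). Most genes lay near 0, with Tfrc at 0.59 and Isg20 at 0.57 furthest to the right among them, and 0 of the 61 tested passed adjustment.

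Markers of other blood cells and of the vessels were read beside the globin genes. The summed level of the 15 neutrophil and marrow granulocyte genes in the table was 10.9, 20.2 and 25.5 CPM in WT and 8.06, 8.75 and 11.6 CPM in Rag1-/-. WT replicate 1 was the lowest and WT replicate 3 the highest WT library, as for the globins, but of the Rag1-/- libraries only replicate 3 was above WT replicate 1. All 12 tested genes had a log2 fold change below 0 with a median of -1.01, and 0 had an adjusted p under 0.05 (smallest adjusted p = 0.285, limma-trend). At an unadjusted p under 0.05 there were 6 of the 12, all lower in Rag1-/-, where 11.6% of all tested genes were called in either direction. Of all 16762 tested genes, 5422 had a log2 fold change above 0, so a value below 0 was the more common direction for any gene. The summed platelet and megakaryocyte genes were at 18, 17.7 and 22.3 CPM in WT and at 22.4, 24.1 and 21.3 CPM in Rag1-/-, with 9 of 11 tested genes above 0 and none past the threshold. The summed blood monocyte genes ran from 0.902 to 1.74 CPM in WT and from 0.487 to 0.787 CPM in Rag1-/-, with no overlap and 1 of the 5 genes in the table above the level of 3 reads in every library. Endothelial genes summed to 500, 518 and 503 CPM in WT and to 471, 461 and 499 CPM in Rag1-/-, with every Rag1-/- library below every WT library. Without Slc2a1, the most abundant of the 10 genes, a choice made after the values were seen, the sums of 299, 295 and 247 CPM in WT and 263, 279 and 289 CPM in Rag1-/- overlapped. Both sums varied less over the libraries than the globin sum. The 8 choroid plexus genes summed to 991, 1247 and 495 CPM in WT and to 562, 642 and 598 CPM in Rag1-/-. All 8 had a log2 fold change below 0 with a median of -0.42, and 0 had an adjusted p under 0.05 by limma-trend (3 of 8 at an unadjusted p under 0.05, beside the same 11.6% of all tested genes). WT replicates 1 and 2 were high and WT replicate 3, the highest in globin, was the lowest. The 8 neuron genes summed to between 3884 and 4381 CPM, with overlapping groups. The part of these cells in the globin levels was not tested.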

How the data were processed

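Total RNA of whole brainstems from 3 WT and 3 Rag1-/- mice was sequenced. Per the labels and the methods of the study, the authors demultiplexed reads with bcl2fastq, aligned them to mm10 with STAR (2.5.3a) and quantified RefSeq transcripts in Partek Flow. The deposited values are CPM per gene. The smallest deposited value is 0.0001. How reads shared by near-identical globin rows were assigned is not given in the sources used here. A pseudocount of 0.1 CPM was added before taking log2, genes whose mean fell under 0.1 CPM were set aside, and limma-trend (limma 3.58.1, R 4.3.3) was fitted to the other 16762, with Benjamini-Hochberg adjustment over all of them. Single genes were also given an exact two-sided permutation test. The fit was tested on simulated data. Sums and ratios over the globin genes were given with no test. Of the low values in a library, 85.1% to 86.7% fell within 0.1 read of a whole number of reads, too few to recover counts, and depths and the level of 3 reads are estimates that cover counting error only. Coding sequences and transcript lengths came from GENCODE release M21 and promoters from RefSeq (GRCm38.p6). The genes and lists were chosen with earlier results of these data known. Genes named from lists were those defining for red cells, those past an adjusted p of 0.05 and the 2 with the largest absolute log2 fold change in a list, and the 5 with the profile most like that of the globins. Some listed genes that this rule names are not reported here. Other pseudocounts, filters, scalings, variance models, a replicate block, a term for libraries with Xist over 100 CPM and leaving out each library were tried.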

Additional observations from a re-analysis of the deposited data

How the results depend on the processing

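The count of 0 of the 7 genes with an adjusted p under 0.05 held under every alternative run. Of 42 log2 fold changes with a library left out, 36 kept their direction and 6 reversed, and of 77 under other settings 71 kept it and 6 reversed, with the cause not tested. With the term for libraries with Xist over 100 CPM, the log2 fold change was -0.72 for Hba-a1, -0.79 for Hba-a2, -0.34 for Hbb-bs, -0.50 for Hbb-bt, -0.33 for Alas2, -0.29 for Slc4a1 and -0.33 for Hbb-b1, a comparison that rests on WT replicate 3. Leaving out each library gave -0.28 to 0.48 for Hba-a1, -0.31 to 0.50 for Hba-a2, -0.024 to 0.74 for Hbb-bt and -0.048 to 0.62 for Slc4a1, with the values below 0 arising without WT replicate 1 or, for Hba-a1 (-0.077) and Hba-a2 (-0.072), without Rag1-/- replicate 3. It gave 0.087 to 0.81 for Hbb-bs, 0.30 to 1.10 for Alas2 and 0.12 to 0.16 for Bpgm. The ratio of mean globin sums was 0.833 to 1.46 with a library left out, the highest without WT replicate 3, and 1.27 with medians.

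Of the other named genes, quantile normalization turned Ppox (0.0075) and Pgam2 (0.021), and leaving out a library gave -0.14 to 0.024 for Ppox, -0.072 to 0.20 for Klf1, -0.28 to 0.085 for Pgam2 and 0.50 to 0.67 for Tfrc. It gave 0.41 to 0.82 for Isg20, -0.41 to -0.16 for Epor, -0.58 to -0.25 for Cd163, -0.48 to -0.19 for Hp and 0.091 to 0.81 for Hbb-b1. With the Xist term the log2 fold change of Isg20 was 0.051. The count of other red cell genes with an adjusted p under 0.05 was 1, Tfrc, with the Xist term (log2 fold change 0.77, adjusted p = 0.00993, limma, where WT replicate 3 is the only WT library compared and is assumed to vary like the other libraries) and 0 to 1 with a library left out. For all tested genes the count of 8 became 4 with a pseudocount of 0.01, 4 with no filter, 4 with a mean of at least 1 CPM, 5 with quantile normalization, 2 without the trend, 0 with ordinary per-gene variance, 134 with the Xist term, and 2 to 24 with a library left out (24 without WT replicate 3, 2 without Rag1-/- replicate 1 or 3). With the replicate number as a block it was 3. The deviations of same-numbered libraries correlated at 0.0926, -0.220 and -0.0183, which does not pair them. The edgeR test on whole reads was not run, since too few values were whole.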
